A study of Mus musculus with 24 samples.

Results

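DAXX, the HIPK kinases and the ASK1 kinase cascade were followed through 10 genes, Daxx, Hipk1, Hipk2, Hipk3, Map3k5, Map2k4, Map2k7, Mapk8, Mapk9 and Txn1, in mouse embryonic fibroblasts with or without CHIP at 37 and 43 °C. Their probes were found by gene name in the array files, with older symbols brought up to date by accession, and each probe was kept apart because probes of Hipk2 and Hipk3 disagreed. This gave 26 of the 41174 probes on the array, and 10 of its 27670 gene or feature names. Of these, 16 passed the filter on dim probes (well above background in the sample channel on all 3 arrays of at least 1 group), among the 19358 probes that did so in all. Probes of a gene are numbered by brightness (the mean of the sample and reference channels), probe 1 being the brightest.

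DAXX is an adaptor and histone chaperone. In the nucleus it works with ATRX to deposit a variant histone H3 and sits in PML bodies, and at the cell membrane it links the death receptor Fas to ASK1, the kinase encoded by Map3k5. ASK1 is held inactive by reduced thioredoxin, the product of Txn1. Once free it phosphorylates MKK4 and MKK7 (Map2k4 and Map2k7), which phosphorylate the JNK kinases (Mapk8 and Mapk9), regulators of AP-1 factors and of apoptosis. The HIPK proteins are nuclear kinases. HIPK1 and HIPK2 bind DAXX, and HIPK2 phosphorylates p53 during DNA damage, a step that favours the p53 programme of cell death. CHIP, the product of Stub1, attaches ubiquitin to clients of the heat shock chaperones, and the title of the study names a stress-dependent interaction of CHIP with DAXX.

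The cells were isolated at embryonic day 13.5 from matings of CHIP (+/-) mice on C57BL6, and all groups were grown with β-mercaptoethanol. The 8 groups of 3 arrays were wildtype (CHIP +/+) or CHIP null (CHIP -/-) cells, kept at 37 °C as controls or heated to 43 °C, each labelled 30 or 240 min. The labels call the 3 samples of a condition biological replicates and do not say whether they came from separate embryos or cultures. If they did not, the p-values measure only the spread between these samples. Each array set Cy5-labelled sample RNA against a Cy3-labelled common reference RNA from mouse cells, so a level below is the log2 of sample over reference for that probe and cannot be set against the level of another probe. Time and array slide cannot be told apart, since no slide holds arrays of both time labels. No slide holds wildtype and CHIP null arrays of the same temperature and time either, so each genotype difference is also a difference between slides. The authors' value table gives all 24 columns the other time label, and times here are those of the scanner files.

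Depth and labels were checked on the whole array. After local background was subtracted, the median Cy5 signal over the probes of an array was 4.78 to 9.90 intensity units. The group means of probes well above background were 34.6% to 47.7%, and replicate arrays correlated at 0.978 to 0.994 across probes. The level of Stub1, the gene deleted in the CHIP null, was -2.43 to -1.72 on the 12 CHIP null arrays and -0.24 to -0.01 on the 12 wildtype arrays, with no overlap. All 4 probes of Hspa1a, the inducible HSP70 gene, were higher after heat at 240 min in both genotypes, by 1.43 to 3.27 in the wildtype and by 1.66 to 2.97 in the CHIP null on the log2 scale. At 30 min 0 of the 4 were called in the wildtype and 1 in the CHIP null, with changes of 0.22 to 0.46. Other chaperone genes did not all rise. Dnajb1 probe 1 was called lower in all 4 heat comparisons (-0.38, -0.20, -0.29 and -0.19), while its probe 2 changed by -0.21, 0.01, 0.02 and 0.18 with no call. Hsph1 was called lower at 30 min (-0.27 and -0.47), and Hspb1 was called higher in 2 of 4. Of 12 fibroblast markers, 11 were well above background on all 24 arrays, and Pdgfra was so on 20. Of 14 macrophage markers, Lyz2 and Marco were well above background on all 24 arrays, 9 others on 14 to 23, Laptm5 on 2, and Itgam and Ptprc on 0.

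Promoter sequence is shown for the members whose RNA fell most with heat, Hipk2 and Hipk3, and for the member with a full heat shock element near an annotated start. RefSeq windows of 300 bases (250 before to 50 after a start, build GRCm38.p6) were found for 10 of the 10 members, 17 windows in all. For Hipk2 (gene at chr6:38687512-38876331, minus strand) the 109 bases just before the annotated gene are chr6:38876332-38876440. For Hipk3 (gene at chr2:104426481-104494489, minus strand) the 250 bases before the start are chr2:104494490-104494739, with GC boxes in capitals. For Map2k4 (gene at chr11:65688244-65788359, minus strand) the stretch is chr11:65745865-65745894, inside the gene, with the heat shock element in capitals starting 30 bases before an inner annotated start.
Hipk2: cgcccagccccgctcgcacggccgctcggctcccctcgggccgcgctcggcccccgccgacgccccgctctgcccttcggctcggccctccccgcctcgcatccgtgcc
Hipk3: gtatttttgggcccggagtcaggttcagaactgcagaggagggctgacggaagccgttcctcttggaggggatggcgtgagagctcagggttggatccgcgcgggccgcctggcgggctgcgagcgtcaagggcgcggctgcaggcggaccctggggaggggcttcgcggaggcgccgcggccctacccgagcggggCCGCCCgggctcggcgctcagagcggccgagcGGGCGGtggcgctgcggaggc
Map2k4: ttactgtgGAAATTTCCGGAAttaacagag
Motifs were searched on both strands, and the shorter heat shock motif lies within the longer. The full heat shock element, GAANNTTC followed by NNGAA, was in 1 of the 17 windows, that of Map2k4, against 0.603% of all 32851 windows. Its shorter form GAANNTTC was in 3 windows of members, against 7.86% of all windows. In the windows of Hipk1, Hipk2 and Hipk3 neither form was present. The AP-1 letters TGANTCA were in 1 window, of Map2k7, against 7.81% of all, and the cAMP response element TGACGTCA was in 0, against 1.79%. The GC box GGGCGG was in 10 of 17, against 35.7% of all windows. These are descriptions of letters in these windows and not of factor binding.

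Most of the members were expressed well above background in these fibroblasts. By the brightness of its brightest probe, averaged over Cy5 and Cy3, Txn1 lay at percentile 98.5 of all probes, Daxx at 94.8, Hipk3 at 93.1, Hipk2 at 92.8, Map2k4 at 83.0, Hipk1 at 76.9, Mapk9 at 73.4, Mapk8 at 73.1, Map2k7 at 64.5 and Map3k5 at 52.5. Brightness depends on the probe and on the reference RNA as well as on the sample RNA, so this order describes the probes. Of the 10 probes under the filter, 8 were never well above background, and the group means of all 10 lay between -0.26 and 0.13. They were Hipk2 probes 3 and 4, Hipk3 probe 3, the single Map3k5 probe, Map2k7 probes 2, 3 and 4, and Mapk8 probes 3, 4 and 5.

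**Figure D1:**
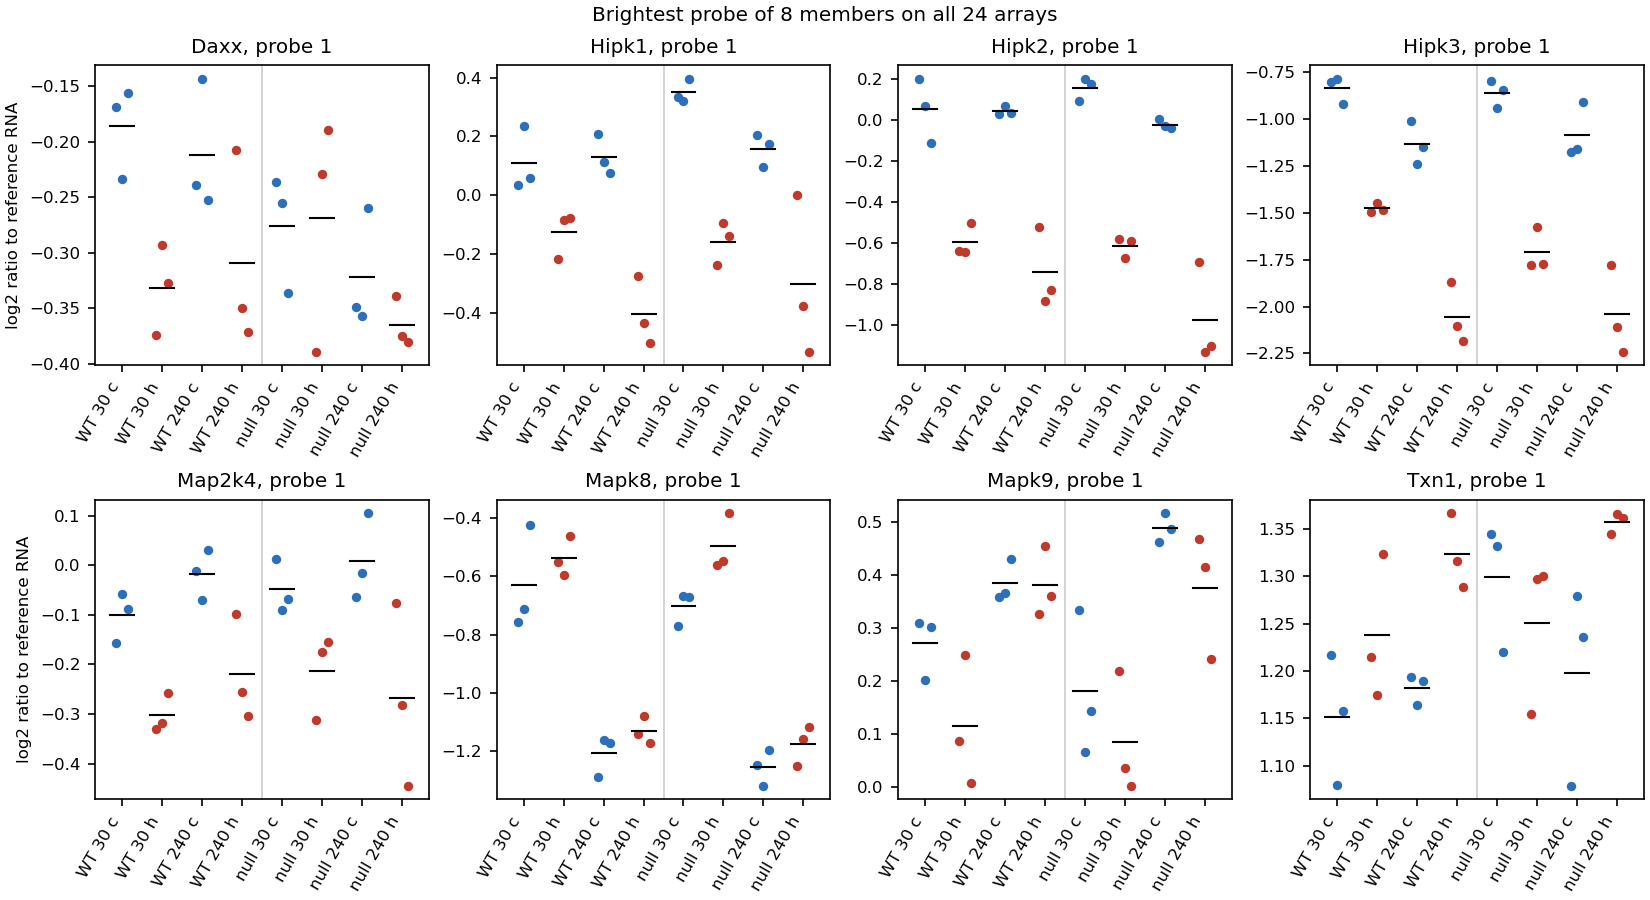
Level of the brightest tested probe of 8 members on each array (y axis, log2 of sample over reference) by group (x axis, c for controls in blue, h for heated cells in red); points are arrays and black bars are group means. Hipk2 and Hipk3 sit lower in every heated group than in its controls, while over all 24 arrays Daxx stays between -0.39 and -0.14 and Txn1 between 1.08 and 1.37.

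Daxx RNA showed no change that passed the test. On its single probe (gene at chromosome 17, 33909404 to 33915590), the wildtype controls labelled 30 min had levels of -0.17, -0.23 and -0.16, and the heated wildtype cells -0.37, -0.29 and -0.33. These arrays did not overlap, and the difference of -0.15 ± 0.06 (SE, n = 3 per group) had an adjusted p of 0.121 in limma. At 240 min the wildtype controls were at -0.24, -0.14 and -0.25 and the heated cells at -0.21, -0.35 and -0.37, which overlap. In the CHIP null the controls were at -0.24, -0.26 and -0.34 and the heated cells at -0.39, -0.23 and -0.19 at 30 min. At 240 min the CHIP null controls were at -0.35, -0.36 and -0.26 and the heated cells at -0.34, -0.38 and -0.38. The 95% intervals of the heat change were -0.27 to -0.02 and -0.22 to 0.03 in the wildtype and -0.12 to 0.13 and -0.17 to 0.08 in the CHIP null, at 30 and 240 min. Centring each array on its median in place of loess turned the value in the CHIP null at 30 min to -0.41, with an adjusted p of 0.0101. The median of all probes tested was -0.15 under that setting.

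The DAXX kinases carried most of the change with heat. Probe 1 of Hipk2 and of Hipk3 fell in both genotypes at both times, by 1.56 to 1.95-fold, and probe 1 of Hipk1 fell in 3 of the 4 comparisons by 1.38 to 1.45-fold. Among all 19358 probes, Hipk3 probe 1 had the 26th, 11th, 14th and 10th largest fall in wildtype cells (30, then 240 min) and CHIP null cells (30, then 240 min). In the same order Hipk2 probe 1 had the 22nd, 40th, 23rd and 11th. The mean share of probes well above background was also lower after heat in each comparison, 37.0% against 39.8%, 45.1% against 47.6%, 34.6% against 40.5% and 44.6% against 47.7%, and the arrays overlapped in the first alone. Its part in the falls was not tested.

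HIPK2 is the family member best known for phosphorylating p53. In the wildtype at 30 min its probe 1 was at 0.20, 0.07 and -0.11 in controls and at -0.64, -0.64 and -0.50 after heat. At 240 min the wildtype controls were at 0.03, 0.07 and 0.04 and the heated cells at -0.52, -0.88 and -0.83. The heated arrays were below all controls at both times, by 0.65 ± 0.09 (SE; adjusted p = 4.35e-05, limma) and 0.79 ± 0.09 (adjusted p = 5.41e-07). The CHIP null controls at 30 min had levels of 0.09, 0.20 and 0.18 against -0.58, -0.67 and -0.59 after heat. Those at 240 min had 0.01, -0.03 and -0.04 against -0.69, -1.13 and -1.10. Again no arrays overlapped, with falls of 0.77 (adjusted p = 1.72e-06) and 0.95 (adjusted p = 3.29e-08).

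HIPK3, a kinase that can also phosphorylate FADD, showed the same direction on its probe 1. The wildtype controls at 30 min were at -0.80, -0.78 and -0.92 and the heated cells at -1.50, -1.45 and -1.48. At 240 min the corresponding levels were -1.01, -1.24 and -1.15 against -1.87, -2.11 and -2.19. The groups did not overlap at either time, and the changes were -0.64 ± 0.09 (SE; adjusted p = 6.43e-05) and -0.92 ± 0.09 (adjusted p = 8.84e-08). In the CHIP null the controls at 30 min were at -0.80, -0.94 and -0.84 and the heated cells at -1.78, -1.58 and -1.77. At 240 min they were at -1.18, -1.16 and -0.91 against -1.78, -2.11 and -2.24. The changes there were -0.85 (adjusted p = 7.22e-07) and -0.96 (adjusted p = 4.04e-08), again with no overlap.

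HIPK1, which binds DAXX and moves it out of PML bodies, had smaller changes. At 30 min its probe 1 was at 0.04, 0.24 and 0.06 in wildtype controls and at -0.22, -0.09 and -0.08 after heat, a difference of -0.24 ± 0.09 (SE) with an adjusted p of 0.0798 and no overlap. At 240 min the wildtype controls were at 0.21, 0.11 and 0.07 and the heated cells at -0.28, -0.44 and -0.50, a fall of 0.54 (adjusted p = 6.12e-05). The CHIP null went from 0.34, 0.32 and 0.40 to -0.24, -0.10 and -0.14 at 30 min, a fall of 0.51 (adjusted p = 0.000117). At 240 min it went from 0.21, 0.10 and 0.17 to 0.00, -0.38 and -0.53, a fall of 0.46 (adjusted p = 0.00027), with replicate 1 of the heated cells closest to the controls.

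The falls of Hipk2 and Hipk3 probe 1 stayed past the threshold under each of the 9 other settings tried and without each single array. Settings that only change which probes are tested (no filter, a stricter filter, the brightest probe per gene) keep the same log ratios, so they could hardly change these calls. Over the 9 settings Hipk2 ranged from -0.87 to -0.49 and from -1.02 to -0.57 in the wildtype, and from -1.30 to -0.74 and from -1.42 to -0.87 in the CHIP null. Hipk3 ranged from -1.10 to -0.56 and from -1.17 to -0.74, and from -1.36 to -0.85 and from -1.45 to -0.96. Within the single slide that held heated and control arrays of a group, the differences of Hipk2 were -0.49, -0.57, -0.74 and -0.94 and those of Hipk3 -0.56, -0.74, -0.91 and -1.13, in the same order of groups. These slides held 1 control and 3 heated arrays, 3 and 1, 3 and 1, and 1 and 3, so each difference rests on a single array on one side. The other arrays of that side lay on another slide. The call of Hipk1 in the wildtype at 240 min was lost with slide as a block (-0.41, adjusted p = 0.0600), and its difference in the wildtype at 30 min was called with an offset of 10 (-0.41), with the deposited log ratio (-0.72) and in the value table (-0.89).

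**Figure D2:**
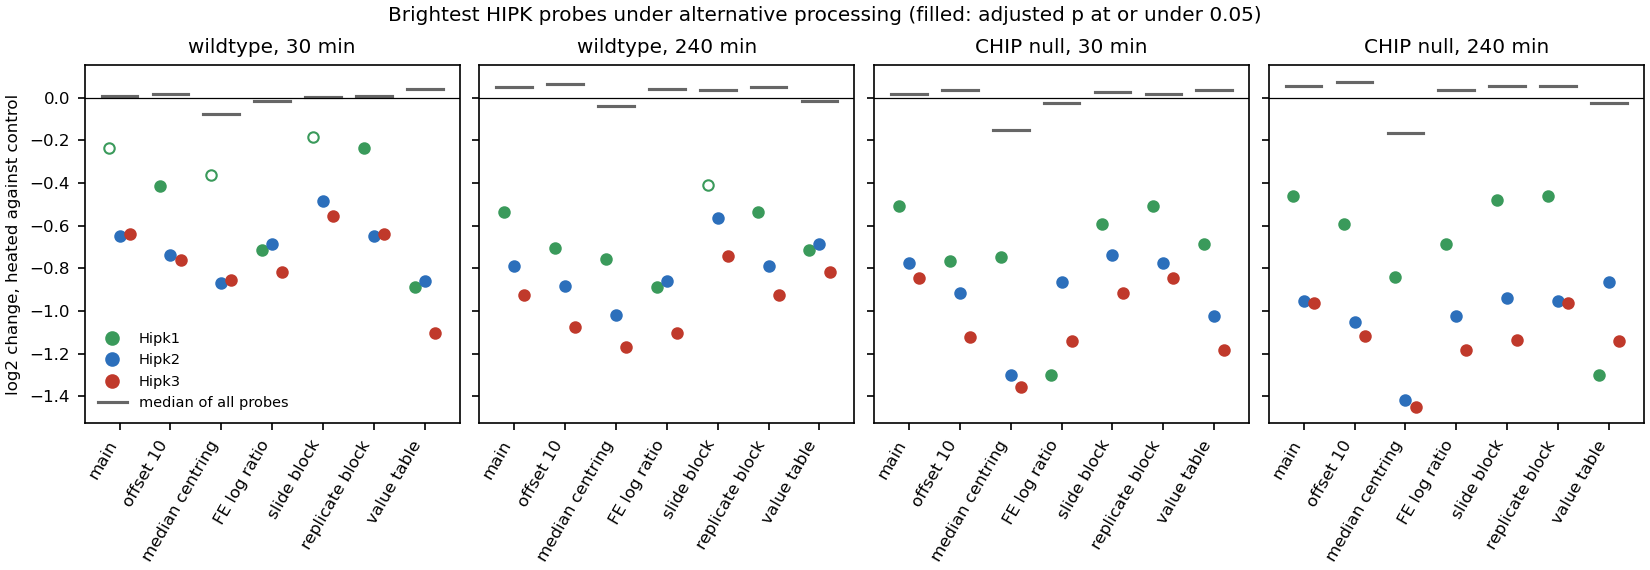
Log2 change with heat of probe 1 of Hipk1, Hipk2 and Hipk3 (y axis) under the reported and alternative settings (x axis) in each genotype and time label. Filled points have an adjusted p at or under 0.05 and grey bars mark the median of all probes tested. Hipk2 and Hipk3 are filled at every setting shown and lie between -1.45 and -0.49.

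Other probes of the same genes did not follow. Hipk2 probe 2, at percentile 53.3 of brightness, was at 0.04, 0.04 and 0.16 in the wildtype controls at 30 min and at -0.07, 0.20 and 0.28 after heat. Its 4 heat changes were 0.06, 0.09, 0.03 and 0.08, and none passed the test. Hipk3 probe 2, at percentile 57.4, changed by -0.07, -0.01, -0.39 and -0.04. The third of these, in the CHIP null at 30 min, passed the test (adjusted p = 0.000587), with controls at 0.65, 0.63 and 0.46 and heated cells at 0.16, 0.24 and 0.18. Hipk1 probe 2 changed by 0.07, 0.12, -0.13 and 0.07 with no call, and Hipk1 probe 3 by -0.13, 0.17, 0.09 and 0.07, of which the rise in the wildtype at 240 min passed the test (adjusted p = 0.0283). For that rise, 2 heated and 1 control arrays were well above background, and its call was lost in 4 of 7 other settings and in 4 of 6 fits without 1 array.

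The disagreeing probes differed in brightness. The offset of 50 added to every intensity, which is 5.64 on the log2 scale, holds the ratio of a dim probe near 0, and the mean log2 brightness of these dimmer probes was 6.02 for Hipk1 probe 3, 6.07 for Hipk2 probe 2 and 6.16 for Hipk3 probe 2. It was 8.72 and 8.78 for probe 1 of Hipk2 and Hipk3. Among the cells heated for 30 min, Hipk1 probe 3 in both genotypes, Hipk1 probe 2 in the CHIP null and Hipk2 probe 2 in the wildtype were well above background on 0 of 3 arrays. In the deposited log ratio, which has no such offset, Hipk2 probe 2 changed by -0.36, 0.43, 0.54 and 0.34 with 0 calls, while Hipk1 probe 2 changed by -1.20 in the CHIP null at 30 min and was called. There the calls of Hipk3 probe 2 in the CHIP null at 30 min and of Hipk1 probe 3 in the wildtype at 240 min were lost. The part of brightness and of the offset in the disagreement between probes was not tested. The brightest probe of each HIPK gene was named by the symbol in the file, since its target accession had no match in the RefSeq table, and Hipk3 probe 2 and Hipk1 probes 2 and 3 by a matched RefSeq mRNA. Which exons or transcript forms each probe reads was not analysed here.

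**Figure D3:**
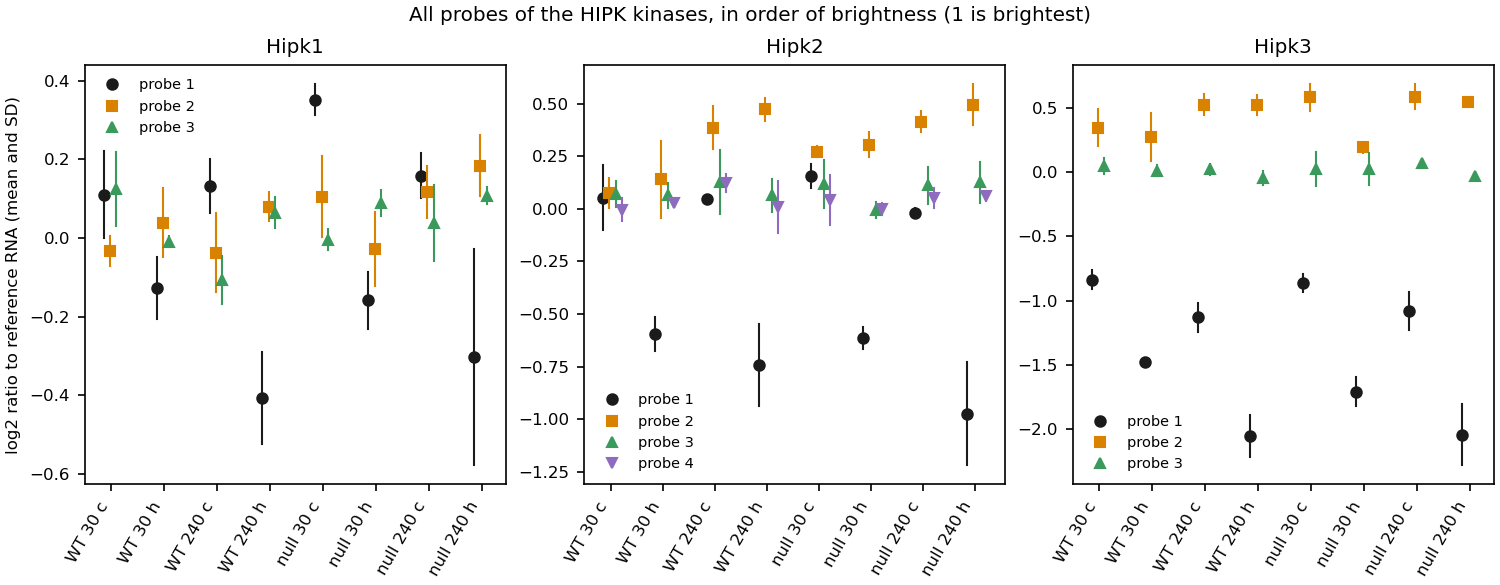
Mean level with SD (n = 3 arrays; y axis, log2 of sample over reference) of every probe of Hipk1, Hipk2 and Hipk3 in the 8 groups (x axis). Hipk2 probes 3 and 4 and Hipk3 probe 3 are shown but were not tested. Probe 1 of Hipk2 and Hipk3 drops in every heated group, and their probe 2 stays between 0.08 and 0.59 in all groups.

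ASK1 itself could not be followed. The single Map3k5 probe was well above background on 1 of 24 arrays, its levels ran from -0.30 to -0.05 with a median of -0.16, and it was not tested. The RNA of its inhibitor thioredoxin was abundant. Txn1 was at 1.22, 1.08 and 1.16 in the wildtype controls at 30 min and at 1.21, 1.18 and 1.32 after heat, which overlap. At 240 min it was at 1.19, 1.16 and 1.19 against 1.37, 1.32 and 1.29 after heat, a difference of 0.14 ± 0.06 (SE, adjusted p = 0.0823) with no overlap. In the CHIP null at 240 min the controls were at 1.08, 1.28 and 1.24 and the heated cells at 1.34, 1.37 and 1.36. That rise of 0.16 (adjusted p = 0.0446) was called in 2 of 9 other settings, was lost in 5 of the 6 fits without 1 array, and turned to -0.05 with median centring.

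Of the MAP2 kinases, Map2k4, which encodes the kinase MKK4 upstream of JNK and p38, was lower after heat in all 4 comparisons, with no overlap of arrays, and passed the test in 2. Its levels in the wildtype were -0.16, -0.06 and -0.09 in controls and -0.33, -0.32 and -0.26 after heat at 30 min. At 240 min they were -0.01, -0.07 and 0.03 against -0.10, -0.26 and -0.31. In the CHIP null they were 0.01, -0.09 and -0.07 against -0.31, -0.18 and -0.15 at 30 min, and -0.07, -0.02 and 0.11 against -0.08, -0.28 and -0.45 at 240 min. The changes were -0.20 (adjusted p = 0.0748), -0.20 (adjusted p = 0.0390), -0.17 (adjusted p = 0.0876) and -0.28 (adjusted p = 0.00507), each with an SE of 0.07. The fall in the wildtype at 240 min was -0.08 with slide as a block and lost its call there, with an offset of 10, without the filter and in 5 of 6 fits without 1 array. The fall in the CHIP null at 240 min was called under all 9 settings and was lost without heated replicate 3 (-0.19). Map2k7 probe 1, for the JNK-specific kinase MKK7, changed by 0.04, 0.07, -0.02 and 0.13 with SE 0.06, and no change passed the test.

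The JNK genes moved little with heat. Mapk8 probe 1 (JNK1) was at -0.77, -0.67 and -0.67 in the CHIP null controls at 30 min and at -0.56, -0.55 and -0.38 after heat, a rise of 0.20 ± 0.07 (SE, adjusted p = 0.0312) with 2 of 3 heated arrays well above background. In the other 3 comparisons it changed by 0.08 to 0.09 with no call. That rise was lost in 5 of 8 other settings and turned to -0.61 in the deposited log ratio. Mapk8 probe 2 changed the other way in the wildtype at 240 min, from 0.09, 0.15 and 0.02 to -0.04, -0.16 and -0.11, a fall of 0.19 (adjusted p = 0.0215) that was called in 4 of 7 other settings. Of Mapk9 (JNK2), 3 probes were tested in 4 heat comparisons and none of the 12 changes, from -0.16 to 0.13, passed the test.

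Counted over the 16 probes tested, 2 were lower and 0 higher after heat in the wildtype at 30 min, where 5.99% of all probes were lower and 5.22% higher. At 240 min in the wildtype 5 were lower and 1 higher, against 12.2% and 16.3% of all probes. In the CHIP null 4 were lower and 1 higher at both times, against 11.9% and 18.8% of all probes at 30 min and 14.2% and 20.9% at 240 min. Arrays of both groups did not overlap for 7 lower and 0 higher, 5 and 3, 6 and 3, and 4 and 1 of the 16 probes. Over all probes these shares were 14.5% and 14.3%, 17.6% and 31%, 17.5% and 23.9%, and 15.3% and 27.8%. The median change of the 16 probes was -0.11, 0.00, -0.07 and -0.06 in that order, beside 0.01, 0.05, 0.02 and 0.06 over all probes tested. Probes share genes here, 3 genes having 2 or 3 tested probes among the HIPKs alone. The heat changes at 240 min did not differ from those at 30 min by limma's test of that difference past the threshold (0 of 16 in each genotype with 4 at an unadjusted p under 0.05, against 0.971% and 1.92% of all probes called).

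**Figure D4:**
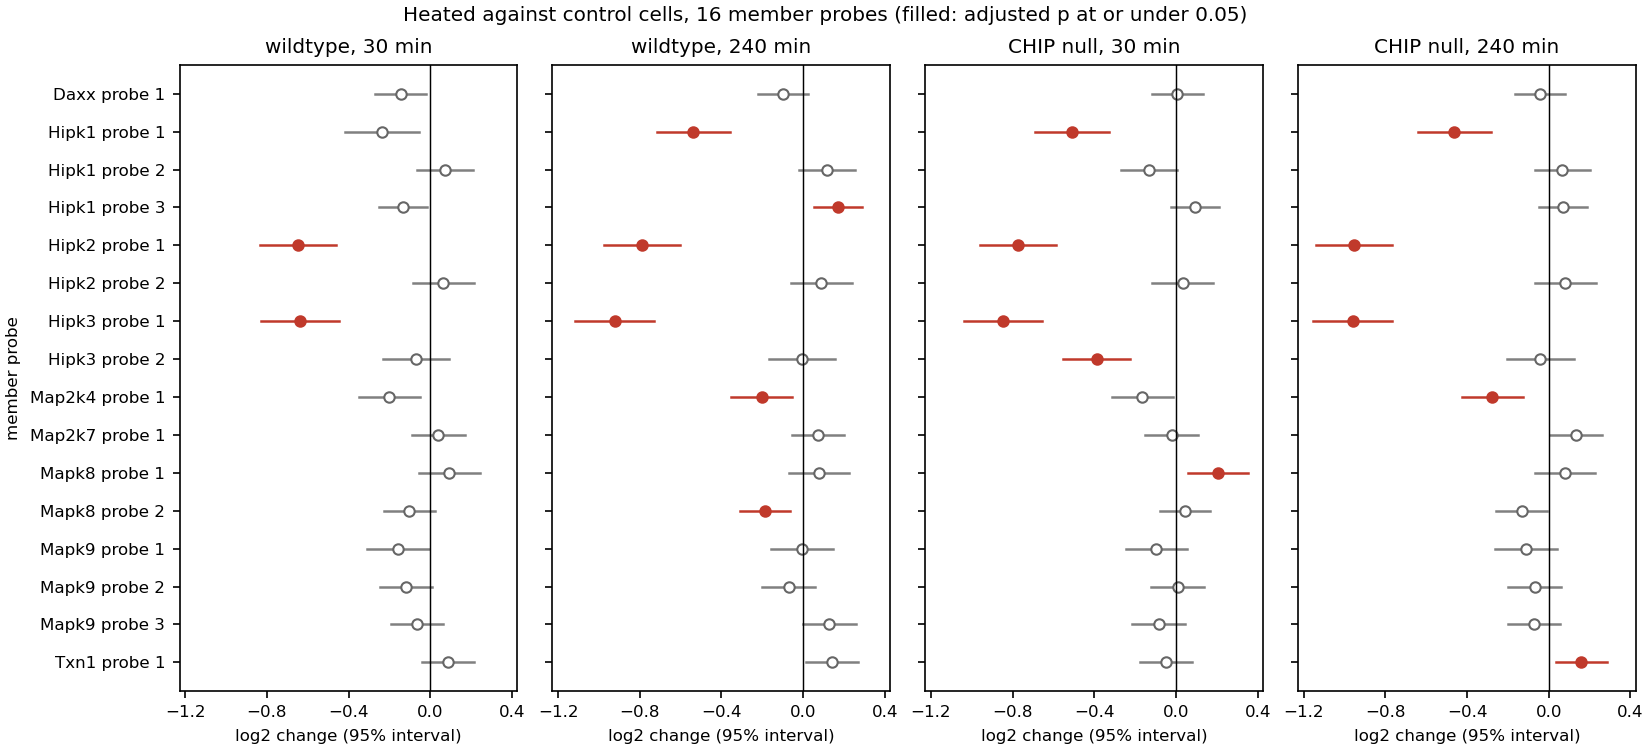
Log2 change with heat (x axis) and 95% interval of each of the 16 tested probes (y axis) in each genotype and time label; filled red points have an adjusted p at or under 0.05. Probe 1 of Hipk2 and Hipk3 lies from -0.96 to -0.64 in all 4 panels, and the other probes lie between -0.54 and 0.20.

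Markers of other cells moved with the same contrasts. Of 14 macrophage markers 11 were tested, and 7 of them were lower after heat in the wildtype at 30 min. Their summed Cy5 level per array was 4950 to 5550 in those controls and 1885 to 2011 after heat. In the other 3 heat comparisons 0 or 1 markers were lower and 5 to 9 higher. The summed levels were then 1394 to 1526 against 1573 to 1679 in the wildtype at 240 min, 1512 to 1567 against 1311 to 1460 in the CHIP null at 30 min, and 1005 to 1040 against 1099 to 1182 at 240 min. The part of these cells in the changes of the members was not tested. In such bulk RNA, fewer cells of a type and less RNA per cell cannot be told apart.

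Few member probes differed between CHIP null and wildtype cells past the threshold. In each of these comparisons the arrays of both genotypes lay on different slides. In the 30-min controls 3 of 16 probes were higher in the CHIP null and 0 lower, against 13.7% and 15.6% of all probes. In the 240-min controls, the heated cells at 30 min and the heated cells at 240 min 0 probes were called, against 10.6%, 22.9% and 10.1% of all probes in either direction. At an unadjusted limma p under 0.05 there were 3, 2 and 1 probes. The 3 calls were Hipk1 probe 1 (0.24 ± 0.09, adjusted p = 0.0386), Hipk2 probe 2 (0.19 ± 0.07, adjusted p = 0.0434) and Hipk3 probe 2 (0.24 ± 0.08, adjusted p = 0.0242), with SE and n = 3 per group. They held in 2 of 8, 2 of 7 and 3 of 7 other settings. Without CHIP null control replicate 1, or without replicate 2, 0 of the 3 passed, and without wildtype control replicate 3 only 1 did.

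The same 30-min cultures differed in other ways. All 11 tested macrophage markers and all 5 neural markers were lower in the CHIP null controls at 30 min, and 6 of 12 fibroblast markers were higher. Xist, the RNA of the inactive X chromosome, was well above background on 3 of 3 CHIP null and 0 of 3 wildtype control arrays, and the Y-linked genes Ddx3y and Eif2s3y on 0 of 3 and 3 of 3. In the 240-min controls Xist was so on all 3 arrays of both genotypes and the Y-linked genes on 0. Markers also differed at 240 min, where 10.6% and 10.1% of all probes were called in controls and heated cells. Of 11 macrophage markers 6 were lower in CHIP null controls and 4 in heated cells. Of 5 epithelial markers 4 and 3 were lower, with 0 higher in either list. Of 5 muscle markers 4 were lower in controls, and 3 were lower and 1 higher in heated cells. Of 12 fibroblast markers 6 were higher and 2 lower in both. Of 5 neural markers 3 were lower and 2 higher, then 2 and 2. The part of these differences in the calls of the members was not tested.

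Daxx in the CHIP null was lower than in the wildtype by 0.09 at 30 min (adjusted p = 0.287) and by 0.11 at 240 min (adjusted p = 0.298) in controls, with no overlap of arrays at either time. In heated cells the differences were 0.06 (adjusted p = 0.527) and -0.06 (adjusted p = 0.662). For Hipk2 probe 1 the heated cells at 240 min differed by -0.23 (adjusted p = 0.117), and for Hipk3 probe 1 the heated cells at 30 min differed by -0.23 (adjusted p = 0.0744).

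The difference between the heat responses of both genotypes was tested directly and passed for 0 of 16 probes at either time, with 4 and 1 at an unadjusted limma p under 0.05, against 0.212% and 0% of all probes. For Hipk2 probe 1 the difference, CHIP null minus wildtype, was -0.12 (95% interval -0.39 to 0.14) at 30 min and -0.16 (-0.43 to 0.10) at 240 min. For Hipk3 probe 1 it was -0.21 (-0.48 to 0.06) and -0.04 (-0.31 to 0.23). Daxx gave 0.15 (adjusted p = 0.531) and 0.06. The 4 probes at 30 min with an unadjusted p under 0.05 were Hipk1 probes 1, 2 and 3 at -0.27, -0.20 and 0.23 and Hipk3 probe 2 at -0.32, with adjusted p-values of 0.282 to 0.431.

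**Figure D5:**
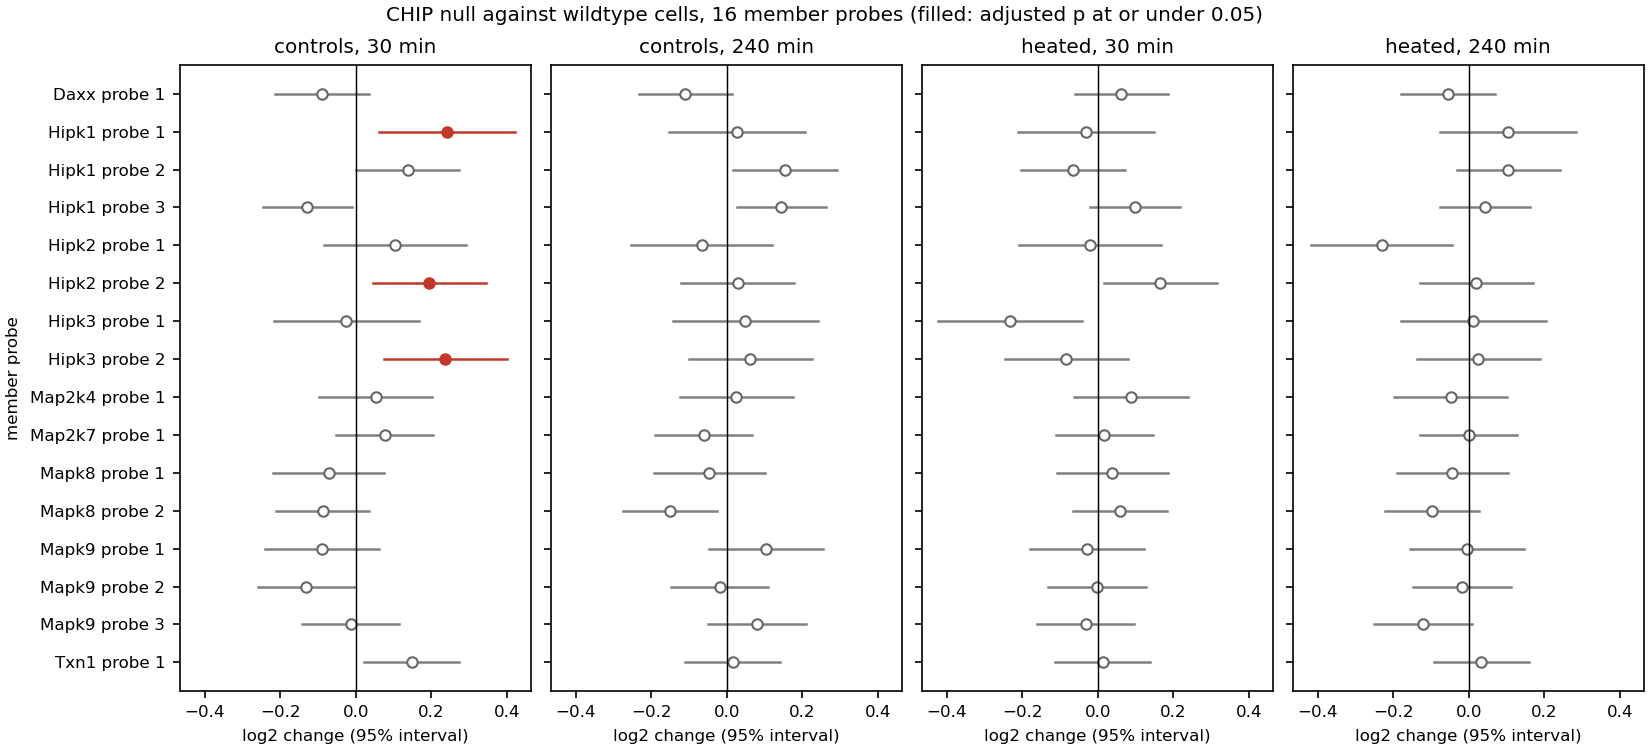
Difference between CHIP null and wildtype cells (x axis, log2, with 95% interval) of the 16 tested probes (y axis) in controls and heated cells at both time labels; filled red points have an adjusted p at or under 0.05. The 3 filled points are all in the 30-min controls and lie at 0.19 to 0.24.

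Between the time labels, Mapk8 probe 1 differed most. It was lower at 240 than at 30 min by 0.58 in the wildtype controls (adjusted p = 7.94e-08) and by 0.55 in the CHIP null controls (adjusted p = 5.68e-07), with all 3 arrays below those labelled 30 min each time. In all, 4 probes were lower and 1 higher in the wildtype and 1 lower and 2 higher in the CHIP null, against 30.7% and 30.3% and against 25.5% and 21.9% of all probes. Hipk3 probe 1 was among them in the wildtype (-0.29, adjusted p = 0.00787). The wildtype controls of both labels also differed in other ways. Ddx3y and Eif2s3y were well above background on 3 of 3 arrays at 30 min and 0 of 3 at 240 min, and Xist the other way round. Their summed macrophage marker level was 4950 to 5550 at 30 min and 1394 to 1526 at 240 min. The part of these differences in the time changes was not tested.

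Other genes of the pathway came from lists chosen with results of these data known, 66 genes of which 63 were tested by their brightest probe. With heat, 10 were lower and 1 higher in the wildtype at 30 min, and 14 and 8 at 240 min. The shares of all probes were 5.99% and 5.22%, then 12.2% and 16.3%. In CHIP null cells it was 19 and 8 at 30 min, then 16 and 9 at 240 min, against 11.9% and 18.8%, then 14.2% and 20.9% of all probes. With slide as a block these became 1 and 0, 2 and 2, 11 and 2, and 14 and 3. Median centring left 8 to 36 lower and 0 higher. The shares of all probes called under these settings are not reported here.

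Of DAXX partners and chromatin genes 11 were tested, and 4, 4, 5 and 3 were lower and 0, 1, 0 and 0 higher in the same order of comparisons. Their medians were -0.18, -0.13, -0.16 and -0.14, beside 0.01, 0.05, 0.02 and 0.06 over all probes tested. Usp7, a deubiquitinase that binds DAXX and MDM2, fell by 0.39, 0.66, 0.43 and 0.64 and was called in all 4. Pml, the scaffold protein of the nuclear bodies that hold DAXX, rose by 0.27 in the wildtype at 240 min.

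In the p53 arm, 8 genes were tested and 1 was lower in each comparison, with 0, 1, 1 and 2 higher. The gene that fell was Mdm2, the ubiquitin ligase of p53, by 0.37, 0.58, 0.47 and 0.54 on probe 1 and by 0.10 to 0.27 on probe 2, which was called in 3 of 4. Trp53, for p53 itself, rose in the CHIP null by 0.25 and 0.18.

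Among death receptor genes and adaptors, 7 were tested and at most 1 was lower or higher with heat in each comparison. JNK and p38 kinases and scaffolds, 7 tested, had 2, 4, 3 and 4 lower and 0, 0, 2 and 1 higher. Mapk14, the p38α gene, fell by 0.35, 0.23, 0.38 and 0.29. Spag9, a JNK scaffold, fell by 0.36, 0.41, 0.37 and 0.51 on probe 1, while its probe 2 rose in the CHIP null by 0.23 and 0.32. Of 8 tested JNK targets and phosphatases, 2, 3, 5 and 4 were lower and 0, 1, 0 and 0 higher. Itch, a ubiquitin ligase activated by JNK, fell by 0.38, 0.25, 0.44 and 0.40, and Jun, the AP-1 subunit, fell in 3 of 4 by 0.31 to 0.39. Usp7, Mdm2, Spag9, Itch and Mapk14 lost 1 to 3 of these 4 calls with slide as a block, and the call of Itch in the wildtype at 240 min held in 4 of 9 settings.

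The 10 other MAP3 and MAP2 kinases had 0, 1, 2 and 2 lower and 0, 2, 1 and 2 higher. Of the 12 tested thioredoxin system genes and ASK1 inhibitors, 1, 1, 3 and 1 were lower and 1, 2, 4 and 3 higher. Txn2, the mitochondrial thioredoxin, rose by 0.23, 0.19, 0.20 and 0.29. It was called in 0 of these 4 with median centring, where the value in the CHIP null at 30 min turned to -0.23. Ywhaz, a 14-3-3 protein gene, fell in 3 of 4, by 0.30 to 0.46.

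By genotype, 15 pathway genes were lower and 10 higher in the CHIP null controls at 30 min, 2 and 3 in the controls at 240 min, 10 and 9 in heated cells at 30 min and 4 and 4 at 240 min. Of all probes, 15.6% were lower and 13.7% higher in the 30-min controls, and 10.6%, 22.9% and 10.1% were called in either direction in the others. Slide as a block left 5 and 0, 1 and 1, 5 and 1, and 1 and 0 pathway genes, and the share of all probes it left is not reported here. Gstm1, a glutathione transferase that binds ASK1, had the widest difference, -1.98 in controls and -2.03 in heated cells at 30 min, and 0.15 and 0.10 with no call at 240 min. This probe 1 was at 0.83 and 0.94 in wildtype controls and heated cells at 30 min, and at -1.62 and -1.46 at 240 min. In the CHIP null it was at -1.15 and -1.09, then -1.47 and -1.36. Gstm1 probe 2 differed by -0.83 and -0.98 at 30 min. Mapk8ip3, a JNK scaffold, differed by -0.53 and -0.88 at 30 min and by -0.18 and -0.23 at 240 min, with calls in 3 of 4. Its call in heated cells at 240 min was lost in 4 of 9 other settings and in 5 of 6 fits without 1 array, and that in 30-min controls was lost with median centring and in the value table (-0.13).

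Fas, the death receptor that DAXX binds, was lower in the CHIP null controls by 0.46 and 0.22 and in heated cells at 30 min by 0.31. Mdm2 was lower in the CHIP null at 30 min by 0.43 in controls and 0.53 in heated cells. Dusp1, a JNK and p38 phosphatase, was lower by 0.21 in controls at 30 min and higher by 0.45 and 0.30 at 240 min. Mapk10, the JNK3 gene, was not well above background in the CHIP null at 30 min and was lower there, with log2 differences of -0.45 in controls (adjusted p = 3.16e-06) and -0.36 in heated cells (adjusted p = 0.000105). With slide as a block the calls of Mapk10 at 30 min, of Mdm2 in controls, of Fas in 240-min controls and of Dusp1 in 30-min controls and in heated cells at 240 min were lost, and those of Mdm2, Fas and Dusp1 in these comparisons were lost with median centring too. Without wildtype control replicate 2 the call of Dusp1 in 30-min controls was lost, and without CHIP null control replicate 2 that of Fas in 240-min controls. All genotype differences of these pathway genes stand beside the marker differences given above, and those at 30 min beside the sex-linked differences too. The part of these marker and sex-linked differences was not tested.

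The probes most like the members over the 24 arrays, after the mean of each time label was subtracted, are given as a description, since the arrays share treatment and slide. For Hipk2 probe 1 they were Map4k5, Usp34 and Usp47 (Pearson r 0.983, 0.981 and 0.981), and for Hipk3 probe 1 Cul5, Smad5 and Tnks2 (0.984, 0.979 and 0.978). For Daxx they were Zfp638, Mpp7 and Rgl1 (0.810, 0.768 and 0.754). The HIPK genes' brightest probes correlated with each other at 0.903, 0.922 and 0.95.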

How the data were processed

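RNA of 24 samples was measured on 44K Agilent arrays, Cy5 for the sample and Cy3 for the common reference on every array. Per the file headers, a GenePix 4000B read the slides and Feature Extraction 9.1.3.1 made the spot values. The deposited intensity values are mean pixels and median local background, uncorrected, per the file headers. The deposited log10 ratio is background-subtracted and dye-normalized, per the file headers. Flags for background and outliers served as filters, and their deposited values are scores of 0 or 1, per the file headers.

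The value table of 28139 probes deposited by the authors was set against the scanner files. Its columns are on a log scale: the scanner files' log10 ratio over ln 2 (at least 99.3% of probes within 0.001 in control columns), Cy5 over Cy3, with the control mean subtracted in heated columns. Each column correlated at 0.998 or more with the scanner file of the other time label and at 0.900 or less with that of its own. Column medians ran from -0.046 to 0.023. No source used here says which time label is right or why the ratio was so divided.

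Background was corrected with normexp (offset 50) and ratios were normalized by loess within each array, control spots at weight 0. The offset draws ratios of dim probes towards 0, and loess hides a change shared by all RNA. The 333 spots flagged as outliers were left out and spots of a probe averaged. Names were updated through RefSeq (GRCm38.p6). Log2 ratios were fitted with limma 3.58.1 (R 4.3.3, data.table, version 1.17.8, statmod 1.5.0) as 8 group means over 24 arrays, with 16 residual and 13.2 prior degrees of freedom, and adjusted by Benjamini-Hochberg over 19358 probes at 0.05. The number of arrays, 3 a group, limits the precision.

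The members and lists were chosen with earlier results of these data known. All member probes are named. Of the other pathway probes those called in the same direction in all 4 heat comparisons, and the 8 with the widest called genotype difference, were to be named, and values of some list genes are not reported here; Pml, Trp53, Jun and Ywhaz, and the sex-linked genes, were named after their values were seen. Slides hold 4 arrays each, and slide was an alternative as a block. Same-numbered replicates did not deviate together (r from -0.27 to 0.55), so numbers were not taken as pairs. Probe sequences and positions were not used here.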

Additional observations from a re-analysis of the deposited data

Results flagged for a closer look

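Hipk1 probe 3 moved in opposite directions with heat, without overlap of arrays, in different groups. It was lower by 0.13 after heat in the wildtype at 30 min (log2 change -0.134), and higher in the CHIP null at 30 min (0.0919) and in the wildtype at 240 min (0.171). At 30 min the heated cells of both genotypes were well above background on 0 of 3 arrays. The difference between genotypes at 30 min was 0.23 with an adjusted p of 0.303 in limma, and the difference between times in the wildtype was 0.30 with an adjusted p of 0.0669. Fas probe 1 was lower after heat in the wildtype at 30 min (-0.143) and higher at 240 min (0.115), again without overlap. That difference was 0.26 with an adjusted p of 0.115. All 3 tests of a difference missed the threshold, and each group held 3 arrays.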

How the results depend on the processing

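The limits come from 3 arrays per group, from dim probes and from slides that hold few groups each. The strict filter, which keeps probes well above background on all 24 arrays, and the brightest probe per gene test fewer probes of the members. The counts of called member probes that left 1.5 times the reported count were as follows. With an offset of 10, 4 were called for heat in the wildtype at 30 min (against 2), 1 between genotypes in heated cells at 30 min (0), 1 between times in CHIP null controls (3) and 1 between heat effects at both times in the wildtype (0). With median centring, 8 (against 5) and 10 (5) were called for heat in the CHIP null at 30 and 240 min and 1 (3) between genotypes in 30-min controls. The deposited log ratio gave 6 for heat in the wildtype and 8 in the CHIP null at 30 min, 1 between genotypes in controls and 1 in heated cells at 30 min, 1 (against 5) between times in wildtype and 0 in CHIP null controls. No filter gave 1 between genotypes in 30-min controls. The strict filter gave 3 for heat in the wildtype at 240 min (against 6), 2 in the CHIP null at 30 min, 0 between genotypes in 30-min controls and 1 and 1 between times. The brightest probe alone gave 1 between genotypes in 30-min controls and 2 between times in the wildtype. Slide as a block gave 2 for heat in the wildtype at 240 min, and 0 and 1 between genotypes in controls and heated cells at 30 min. The value table with its own time labels gave 4 for heat in the wildtype at 30 min, 8 in the CHIP null at 240 min, 0 and 1 between genotypes in controls at 30 and 240 min, 1 in heated cells at 240 min, and 1 and 0 between times. The share of all probes called under each setting is not reported here, so these counts do not set the members against other probes. Apart from fewer probes under a filter, the cause of the changed counts was not tested.

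Direction reversed for Daxx in the CHIP null at 30 min (-0.413), Mapk8 probe 1 (-0.217) and Txn1 (-0.0533) in the CHIP null at 240 min, and Txn2 in the CHIP null at 30 min (-0.228) with median centring, which moved the median of all probes to -0.077, -0.039, -0.154 and -0.167 in the 4 heat comparisons. Mapk8 probe 1 reversed in the CHIP null at 30 min (-0.606) in the deposited log ratio. The value table, whose time labels are the other way round, reversed Hipk1 probe 2 (-1.20) and Txn1 (-0.206) in the CHIP null at 240 min, Hipk1 probe 3 in the wildtype at 240 min (-0.700) and Hipk3 probe 2 between genotypes in 30-min controls (-0.000739). In it the genotype differences of Gstm1 probe 1 were 0.163 and 0.170 at 30 min and -2.13 and -2.21 at 240 min, those of Gstm1 probe 2 were 0.213 and 0.0900 at 30 min and -1.60 in 240-min controls, and those of Dusp1 were 0.474 and 0.288 at 30 min and -0.272 and -0.102 at 240 min.

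Leaving out 1 array at a time gave 2 to 2, 3 to 5, 4 to 5 and 3 to 5 called member probes for the 4 heat comparisons, wildtype before CHIP null and 30 before 240 min. Over all probes these refits called 1091 to 2239, 3426 to 5468, 4304 to 5509 and 3834 to 8101. Between genotypes the range for member probes was 0 to 3 in 30-min controls and 0 to 1 in the other 3 comparisons, between times 4 to 5 and 3 to 4, and 0 to 0 or 0 to 1 for the differences between heat effects. Over all probes the refits between genotypes called 4405 to 5343 and 1420 to 1712 in controls. In heated cells they called 3580 to 3941 and 1309 to 2400. Those between times called 10596 to 11242 and 7564 to 8930, and those for differences between heat effects 0 to 978. The count of called member probes for heat in the wildtype at 240 min was 3 without control replicate 2 and without heated replicate 3. For heat in the CHIP null at 240 min it was 3 without heated replicate 3. The replicate block, which the data do not bear out as a pairing, kept 126 values of member probes on their side of the threshold. Under it Hipk1 probe 1 gained a call in the wildtype at 30 min and Txn1 lost its call in the CHIP null at 240 min.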
